A study of Mus musculus with 6 samples.

Results

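The genes described here are 10 targets of the transcription factor p53 that act in growth arrest and in the response to stress, *Cdkn1a*, *Zmat3*, *Ccng1*, *Btg2*, *Trp53inp1*, *Sesn1*, *Sesn2*, *Plk2*, *Tigar* and *Ppm1d*. They were matched by symbol, and all 10 were found among the 34573 genes of the count table, *Tigar* under its older symbol 9630033F20Rik. RNA was sequenced from hematopoietic stem cells (HSCs) of mouse bone marrow, sorted as lineage-, CD48- and CD150+. The study's definition of HSCs adds Sca-1+ and c-Kit+ to these markers. There were 3 libraries from *Rpl22* KO (*Rpl22*-/-) and 3 from *Rpl22* WT (*Rpl22*+/+) mice. *Rpl22* encodes a protein of the large ribosomal subunit, and the study describes its loss as a germline ablation. Per its methods the mice of both genotypes were backcrossed to C57BL/6 and were used as young adults. The labels do not say whether the 3 libraries of a genotype came from separate mice or pools, so the p-values measure only the spread between these libraries, which may be partly technical.

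The protein p53 is a transcription factor that is kept scarce by the ubiquitin ligase Mdm2 and its partner Mdm4, and it accumulates when DNA is damaged or when the assembly of ribosomes is disturbed. Its targets include inhibitors of the cell cycle, proteins that slow translation and growth, enzymes that limit oxidative stress, genes of apoptosis, and phosphatases and ligases that feed back on p53 itself. In HSCs p53 is known to take part in keeping the cells quiescent and in removing damaged cells. The study used p53-deficient mice elsewhere to ask whether the expansion of HSCs after *Rpl22* loss ran through p53. It reported that the expansion was not suppressed by p53 deficiency and did not depend on p53. The comparison of the genotypes here shows only how these targets stood in the sorted cells.

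The libraries held 9321123 to 13385850 reads on genes. Reads on *Rpl22* itself numbered 449 to 546 per *Rpl22*-/- library and 5031 to 7001 per *Rpl22*+/+ library, as the labels require. All 12 markers listed for HSCs were expressed, and their summed level was 3183 to 3530 CPM, counts scaled to a common library size, in *Rpl22*-/- and 3286 to 3311 CPM in *Rpl22*+/+ libraries. The scaling used edgeR's TMM factors. Of 6 markers each, 1 B cell and 1 T cell marker had enough reads for a test. The 8 neutrophil markers summed to 96.5 to 211 CPM in *Rpl22*-/- and 66.1 to 104 CPM in *Rpl22*+/+ libraries, the highest in *Rpl22*-/- replicate 2, where *Mpo* alone reached 101 CPM against 13.9 and 17.1 CPM in the other *Rpl22*-/- libraries. The 6 megakaryocyte markers summed to 972 to 1236 CPM in *Rpl22*-/- and 701 to 923 CPM in *Rpl22*+/+ libraries. In sorted bulk samples, a shift in the kinds of cells and a shift in the RNA per cell cannot be told apart.

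Of the 10 genes, 3 rose and 0 fell in *Rpl22*-/- HSCs. *Cdkn1a* and *Zmat3* rose more than 5-fold, *Ccng1* rose 1.49-fold, and the other 7 did not pass the test. All 10 had enough reads for a test. Genotypes were compared by the quasi-likelihood test of edgeR, p-values were adjusted by Benjamini-Hochberg over the 14004 genes tested, and passing means an adjusted p below 0.05. Over all these genes 5.57% passed, 3.28% as higher and 2.29% as lower in *Rpl22*-/- HSCs. Of the 14004 genes, 3122 had an unadjusted p below 0.05. *Rpl22*-/- and *Rpl22*+/+ libraries stood apart without overlap for the same 3 of the 10 genes, all higher in *Rpl22*-/-, where 13.3% of all genes tested stood apart in that direction and 13.6% in the other. The median log2 fold change of the 10 genes was 0.14, beside −0.0068 over all genes tested.

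**Figure D1:**
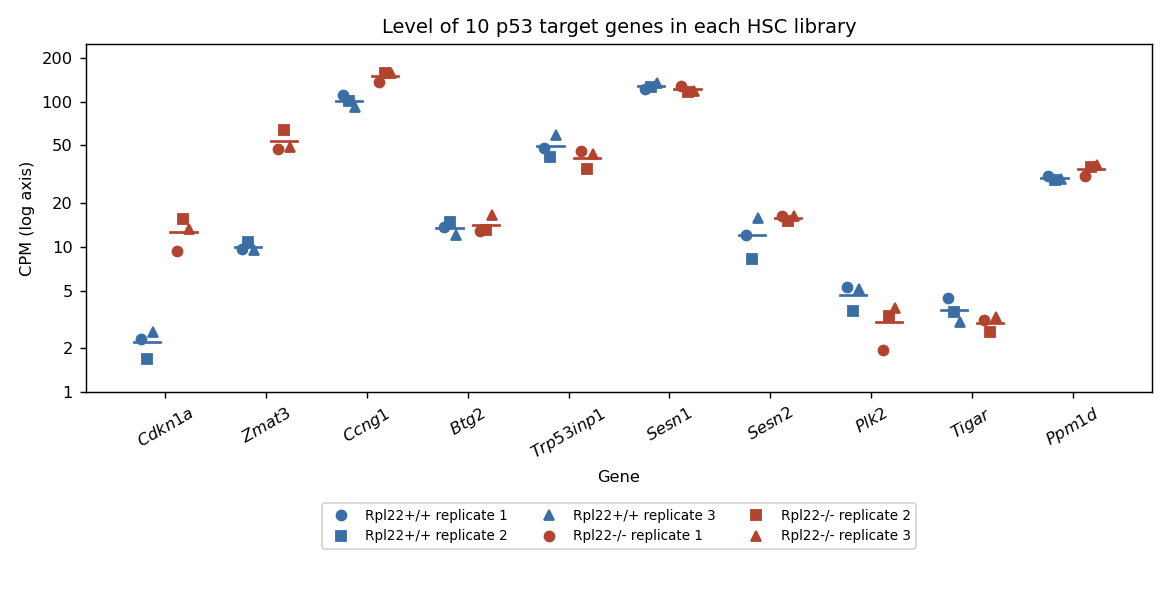
CPM (log axis) of the 10 genes in each library, with *Rpl22*+/+ in blue, *Rpl22*-/- in red, a symbol for each replicate number and a bar at the mean of 3 libraries. The red points lie above all blue points for *Cdkn1a*, *Zmat3* and *Ccng1* and overlap them for the other 7 genes.

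Among the genes that stop the cell cycle, *Cdkn1a* encodes p21, which binds and inhibits cyclin-dependent kinases. It lies on the forward strand of GRCm38 (the assembly also named mm10) at chr17:29090976-29100727. Its reads, in the order of replicates 1, 2 and 3, were 121, 186 and 175 for *Rpl22*-/- against 30, 21 and 25 for *Rpl22*+/+ HSCs, which is 9.43, 15.5 and 13.3 CPM against 2.30, 1.69 and 2.60 CPM. The lowest *Rpl22*-/- library was thus well above the highest *Rpl22*+/+ library, although the gene was among the less abundant of the 10 in both genotypes. Its mean was 12.7 ± 3.06 CPM in *Rpl22*-/- and 2.20 ± 0.467 CPM in *Rpl22*+/+ HSCs (SD, n = 3 each). The log2 fold change came to 2.54 with a standard error of 0.25 (adjusted p = 7.56e-05 from edgeR), or 5.82-fold, which was the 10th largest increase among all genes tested.

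*Zmat3* encodes a zinc finger protein that binds RNA and is a long-known target of p53. It lies on the reverse strand at chr3:32334792-32366014. Its reads were 606, 764 and 644 for *Rpl22*-/- against 126, 135 and 92 for *Rpl22*+/+ HSCs, in the same order of replicates, which is 47.2, 63.6 and 48.9 CPM against 9.68, 10.8 and 9.57 CPM. The *Rpl22*+/+ libraries differed little among themselves (SD 0.097 on the log2 scale), and every *Rpl22*-/- library was over 4 times as high as any of them. The log2 fold change came to 2.40 with a standard error of 0.14 (adjusted p = 8.05e-08 from edgeR), and its p-value was the 3rd smallest among all genes tested. For *Cdkn1a*, *Zmat3* and *Ccng1* the highest library in CPM was *Rpl22*-/- replicate 2, which also had the most neutrophil marker RNA. Without that library their log2 fold changes were 2.38, 2.26 and 0.54, and each still passed. The part of neutrophil RNA in these levels was not tested.

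*Ccng1* encodes cyclin G1, which recruits a phosphatase to Mdm2 and so feeds back on p53. It lies on the reverse strand at chr11:40748552-40755311. Its reads were 1759, 1906 and 2063 in the *Rpl22*-/- replicates and 1439, 1267 and 879 in the *Rpl22*+/+ replicates, or 137, 159 and 157 CPM against 110.5, 102 and 91.5 CPM. The genotypes did not overlap, but the nearest libraries, *Rpl22*-/- replicate 1 and *Rpl22*+/+ replicate 1, were much closer than for *Cdkn1a* and *Zmat3*. The log2 fold change came to 0.57 with a standard error of 0.094 (adjusted p = 0.00444 from edgeR), with a 95% interval from 0.37 to 0.77. Its interval did not reach those of *Cdkn1a* (2.01 to 3.07) and *Zmat3* (2.1 to 2.71).

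The stretches of promoter that hold a match to the p53 half-site are shown for the 4 genes with an exact match, because p53 binds DNA through pairs of this motif. RefSeq promoter windows on GRCm38.p6, each 250 bases before to 50 bases after an annotated start, were given for 8 of the 10 genes, in 10 windows since *Cdkn1a* and *Sesn1* have 2 annotated starts. *Zmat3* and *Trp53inp1* had no window in the table. The half-site consensus of 10 bases reads the same on both strands, so a single scan covered both, and at most 1 mismatch was allowed outside its central C and G. Every match inside a printed stretch, with 0 or 1 mismatch, is in capitals, and each line reads 5′ to 3′ on the strand of the gene.
*Cdkn1a*: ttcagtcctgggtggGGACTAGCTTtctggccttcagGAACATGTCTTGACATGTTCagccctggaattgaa
*Ccng1*: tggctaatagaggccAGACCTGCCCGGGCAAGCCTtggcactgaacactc
*Ppm1d*: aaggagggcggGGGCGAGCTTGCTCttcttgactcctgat
*Sesn1*: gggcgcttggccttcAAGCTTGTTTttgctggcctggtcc

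The *Cdkn1a* stretch is chr17:29090891-29090962 on the forward strand, before the more upstream of its 2 annotated starts. Its half-sites begin 73, 51 and 41 bases before that start, the first and second exact and the last with 1 mismatch, and the second and last abut. The *Ccng1* stretch is chr11:40755447-40755496 on the reverse strand, where 2 half-sites abut 195 and 185 bases before the start with 1 and 0 mismatches. *Ppm1d* (chr11:85311107-85311146, forward strand) had its exact match 132 bases before the start, overlapped by a match with 1 mismatch 136 bases before it, and a further match with 1 mismatch 20 bases before the start, outside the stretch. *Sesn1* (chr10:41887251-41887290, forward strand) had its exact match 173 bases before the second start and a match with 1 mismatch 223 bases before it, outside the stretch. In neither window did 2 half-sites abut. Over all 32851 windows of the table, 50.9% held a half-site with at most 1 mismatch, 8.36% held an exact one, and 0.067% held 2 abutting half-sites with at most 1 mismatch between them. Of the 8 genes with a window, 6 held a half-site, 4 an exact one and 2 an abutting pair (*Cdkn1a* and *Ccng1*). These counts are per gene and the shares above per window, and *Cdkn1a* and *Sesn1* each also had a window without any half-site. Of the 3 genes that rose, *Zmat3* could not be looked at in this way. The abutting arrangement was looked for after the matches had been seen. The matches are a description of these windows and no measure of p53 binding, which was not assayed in these libraries. *Btg2* had 2 and *Tigar* 1 match with 1 mismatch, and *Sesn2* and *Plk2* had none in their windows.

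*Btg2* encodes a protein that recruits the deadenylation machinery to messenger RNA and slows entry into the cell cycle. It measured 12.9, 13.2 and 16.6 CPM in the *Rpl22*-/- replicates and 13.7, 14.9 and 12.1 CPM in the *Rpl22*+/+ replicates, in the order 1, 2 and 3 used throughout. The genotypes overlapped throughout. Its log2 fold change was 0.07 (adjusted p = 0.833 from edgeR), with a 95% interval from −0.26 to 0.40, whose upper bound is below the change of *Ccng1*.

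*Trp53inp1* encodes a nuclear protein that supports the apoptotic and autophagic programs of p53. It measured 45.6, 34.1 and 43.9 CPM in the *Rpl22*-/- replicates and 48.1, 41.8 and 59.4 CPM in the *Rpl22*+/+ replicates. The *Rpl22*-/- mean was the lower, but 2 *Rpl22*-/- libraries lay above *Rpl22*+/+ replicate 2. The log2 fold change was −0.27, with a 95% interval from −0.55 to 0.02 (adjusted p = 0.259 from edgeR).

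*Plk2* encodes a polo-like kinase that p53 induces. Few reads fell on it, 25, 40 and 50 in the *Rpl22*-/- replicates and 69, 45 and 49 in the *Rpl22*+/+ replicates, or 1.95, 3.33 and 3.8 CPM against 5.30, 3.61 and 5.10 CPM. *Rpl22*-/- replicate 3 lay above *Rpl22*+/+ replicate 2, so the genotypes overlapped. The log2 fold change was −0.62 with a wide 95% interval from −1.25 to 0.01 (adjusted p = 0.227 from edgeR), which at this depth leaves both a decrease of more than 2-fold and no decrease within its bounds.

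The sestrins hold down mTORC1, the kinase complex that couples amino acids to growth, and limit oxidative damage. *Sesn1* was the most abundant of the 10 genes per kilobase of exon in *Rpl22*+/+ HSCs and measured 129, 117 and 119 CPM in the *Rpl22*-/- replicates and 122, 126 and 135 CPM in the *Rpl22*+/+ replicates. The libraries of a genotype agreed closely, with an SD of 0.074 and 0.075 on the log2 scale, and the genotypes overlapped. Its log2 fold change of −0.07 had the narrowest 95% interval of the 10 genes, from −0.25 to 0.11 (adjusted p = 0.667 from edgeR), so that a 1.49-fold increase like that of *Ccng1* lay outside it. *Sesn2*, which also senses leucine and is induced by the stress factor Atf4, measured 16.4, 15.2 and 16.3 CPM in the *Rpl22*-/- replicates and 12.1, 8.19 and 15.8 CPM in the *Rpl22*+/+ replicates. The *Rpl22*-/- libraries lay close together, while the *Rpl22*+/+ libraries spread over almost 2-fold and *Rpl22*+/+ replicate 3 exceeded the lowest *Rpl22*-/- library. The log2 fold change of *Sesn2* was 0.42, and it did not pass (unadjusted p = 0.0458, adjusted p = 0.215 from edgeR, 95% interval from 0.01 to 0.83). It was 0.20 without *Rpl22*+/+ replicate 2 and 0.65 without *Rpl22*+/+ replicate 3.

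*Tigar* encodes a phosphatase that lowers fructose-2,6-bisphosphate and so turns glucose away from glycolysis. Its reads were 40, 31 and 43 for *Rpl22*-/- against 58, 44 and 29 for *Rpl22*+/+ HSCs, or 3.12, 2.58 and 3.27 CPM against 4.46, 3.53 and 3.02 CPM. The groups overlapped, and the log2 fold change of −0.30 had a 95% interval from −0.89 to 0.28 (adjusted p = 0.56 from edgeR). *Ppm1d* encodes Wip1, a phosphatase that p53 induces and that turns off p53 and the kinases upstream of it. It measured 30.6, 35.5 and 36.8 CPM in the *Rpl22*-/- replicates and 31.0, 28.9 and 29.6 CPM in the *Rpl22*+/+ replicates. *Rpl22*-/- replicate 1 lay within the *Rpl22*+/+ libraries, and the log2 fold change was 0.20, with a 95% interval from −0.04 to 0.44 (adjusted p = 0.311 from edgeR).

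**Figure D2:**
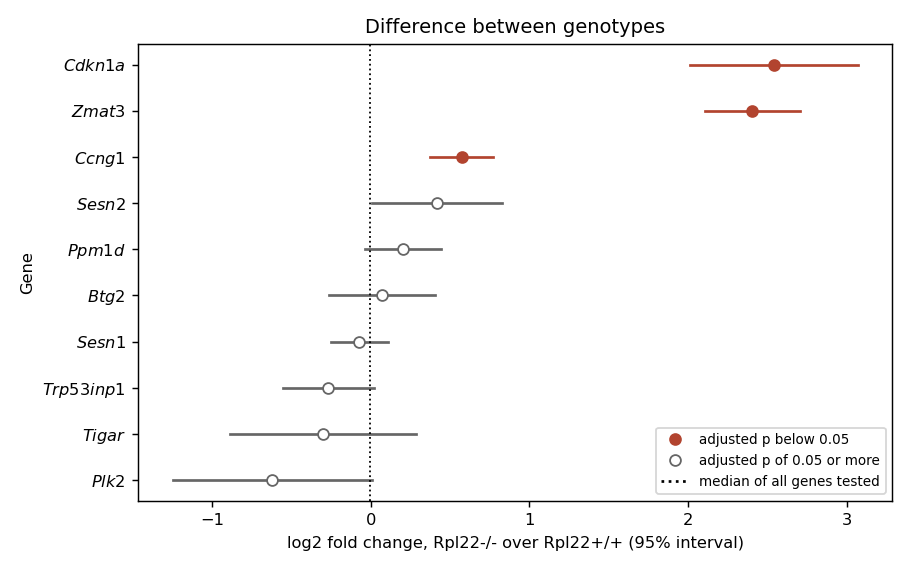
Log2 fold change of *Rpl22*-/- over *Rpl22*+/+ HSCs (points) with the 95% interval (lines) for each of the 10 genes, filled and red where the adjusted p from edgeR was below 0.05. *Cdkn1a* and *Zmat3* lie above 2, *Ccng1* lies at 0.57, and the other 7 genes lie between −0.62 and 0.42 around the dotted median of all genes tested.

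Exon length was used to set the levels of different genes side by side, as CPM per kilobase of merged exons. In *Rpl22*+/+ HSCs *Sesn1* (32.1 ± 1.68, SD, n = 3) and *Ccng1* (28.8 ± 2.72) were the highest and overlapped, followed by *Ppm1d* (9.39 ± 0.332) and *Trp53inp1* (7.69 ± 1.38), which also overlapped, and then by *Btg2* and *Sesn2*. *Plk2*, *Tigar* and *Zmat3* overlapped in turn at means of 1.04, 1.0 and 0.877, and *Cdkn1a* was the lowest of the 10, at 0.618 ± 0.132, with no overlap with *Zmat3* above it. In *Rpl22*-/- HSCs *Ccng1* (42.9 ± 3.39) stood above *Sesn1* (30.5 ± 1.59) without overlap. *Zmat3* (4.66 ± 0.787) had moved from rank 9 to rank 6, where it overlapped *Btg2* above and *Sesn2* below it, and *Cdkn1a* (3.58 ± 0.862) had moved from rank 10 to rank 8, above *Tigar* and *Plk2*. The lengths cover every annotated exon, so a gene with long rarely used exons has its level understated on this scale.

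The paralogs of the 10 genes were compared in the same way. Of 29 tested, 0 passed as higher and 1, *Sesn3*, as lower with edgeR, and DESeq2 passed 1 as higher and 1 as lower. An unadjusted p below 0.05 was found for 6 of the 29, beside 3122 of 14004 over all genes. Without *Rpl22*-/- replicate 1, 3 passed as higher and 3 as lower, and without any other library 0 passed in either direction. Calls over all genes also rose without *Rpl22*-/- replicate 1, from 780 to 1720. They fell to between 127 and 370 when any other library was left out. The median log2 fold change of the paralogs was −0.09. In the Cip/Kip family of kinase inhibitors *Cdkn1a* made up 9.62%, 17.7% and 13.1% of the summed level per kilobase in the *Rpl22*-/- replicates and 2.51%, 1.78% and 2.38% of it in the *Rpl22*+/+ replicates. *Cdkn1b*, which encodes p27 and is named here to complete the family, remained the most abundant in all 6 libraries, at 58.1% to 70.1%, and its log2 fold change was −0.09 (adjusted p = 0.712 from edgeR). *Cdkn1c*, which encodes p57, an inhibitor known for the quiescence of HSCs, measured 14.7, 12.0 and 11.7 CPM in the *Rpl22*-/- replicates and 20.7, 15.3 and 18.2 CPM in the *Rpl22*+/+ replicates. These did not overlap, but the log2 fold change of −0.50 did not pass (adjusted p = 0.0757 from edgeR).

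**Figure D3:**
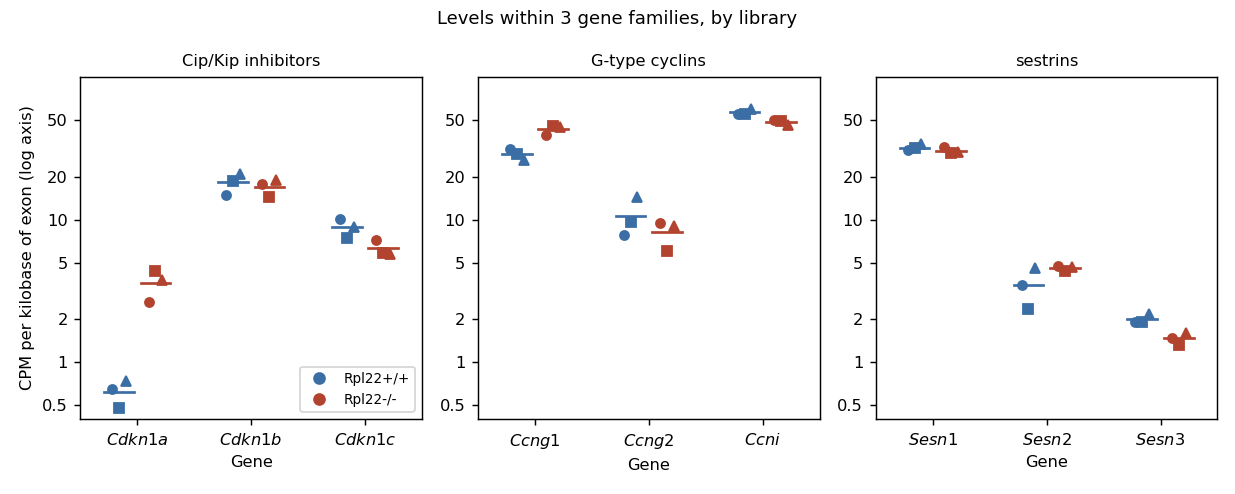
Level per kilobase of exon (log axis) in each library for the Cip/Kip inhibitors, the G-type cyclins and the sestrins, with *Rpl22*+/+ in blue, *Rpl22*-/- in red, symbols for replicates 1 (circle), 2 (square) and 3 (triangle) and a bar at the mean. Of these 9 genes, *Cdkn1a* and *Ccng1* are higher and *Cdkn1c*, *Ccni* and *Sesn3* lower in *Rpl22*-/- without overlap.

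Among the sestrins, *Sesn3* was at a log2 fold change of −0.44 (adjusted p = 0.0459 from edgeR), with 22.6, 20.3 and 24.4 CPM in the *Rpl22*-/- replicates and 29.4, 29.1 and 33.2 CPM in the *Rpl22*+/+ replicates, which did not overlap. That call was close to the threshold and held in 8 of 16 alternatives. Whether *Sesn2* and *Sesn3* differed in their response was not tested. Among the G-type cyclins, *Ccng1* took 39.7% to 44.9% of the summed level per kilobase in *Rpl22*-/- and 25.9% to 33.3% in *Rpl22*+/+ libraries, and *Ccni* was at a log2 fold change of −0.23 (adjusted p = 0.104 from edgeR). In the Zmat family of zinc finger proteins *Zmat3* took 6.62% to 7.69% against 1.5% to 1.85%, and *Zmat2*, with the smallest p among its paralogs, was at a log2 fold change of 0.24 (adjusted p = 0.168 from edgeR). *Plk1*, the mitotic relative of *Plk2*, was at a log2 fold change of 0.53 (adjusted p = 0.0592 from edgeR), and *Plk2* made up at most 4.71% of the polo-like kinases in any library. In the remaining families the smallest p-values belonged to *Tob1*, *Trp53inp2*, *Pfkfb2* and *Ppm1b*, at log2 fold changes of 0.26, −0.48, −0.17 and −0.22, and none of them passed.

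Among the factor and its regulators, 1 of 18 genes tested passed, as lower. An unadjusted p below 0.05 was found for 8 of them, beside 3122 of 14004 over all genes. *Trp53*, the gene of p53, measured 229, 272 and 249 CPM in the *Rpl22*-/- replicates and 206, 211 and 215 CPM in the *Rpl22*+/+ replicates. All *Rpl22*-/- libraries were the higher, but the log2 fold change of 0.25 (standard error 0.087) did not pass (adjusted p = 0.104 from edgeR). *Mdm2*, both a regulator and a target, measured 96.3, 82.9 and 97.3 CPM in the *Rpl22*-/- replicates and 89.6, 94.6 and 101 CPM in the *Rpl22*+/+ replicates, a log2 fold change of −0.04 (adjusted p = 0.818 from edgeR). *Mdm4* measured 156, 124 and 174 CPM against 186, 202 and 207 CPM, without overlap, and fell by 0.39 on the log2 scale (adjusted p = 0.0484 from edgeR), a call that held in 8 of 16 alternatives. The calls in this list depended on the processing. DESeq2 passed 1 as higher and 1 as lower, edgeR with library size alone passed 0 as higher and 4 as lower, and edgeR without *Rpl22*-/- replicate 1 passed 4 as higher and 1 as lower. Leaving out any other library gave 0 in either direction, where calls over all genes fell from 780 to between 127 and 370. The list's median log2 fold change was −0.10 and ran from −0.14 to 0.0007 over the alternatives. *Atm*, *Hipk2* and *Rpl11*, whose proteins are kinases that act on p53 and a ribosomal protein that binds Mdm2, had log2 fold changes of −0.27, 0.27 and 0.29 and did not pass with TMM scaling. *Cdkn2a*, which encodes the Mdm2 inhibitor p19Arf as well as p16, had 2 reads in *Rpl22*-/- replicate 1 and 0 in each of the other 5 libraries, too few for a test.

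Of 35 other p53 targets tested, 8 passed as higher and 0 as lower, and 27 did not pass. Over all genes tested 3.28% passed as higher and 2.29% as lower. This list, like the others, was chosen with earlier results of these data known. The list's median log2 fold change was 0.15. *Eda2r*, a receptor of the tumor necrosis factor family, measured 14.0, 15.4 and 15 CPM in the *Rpl22*-/- replicates and 4.53, 3.37 and 3.02 CPM in the *Rpl22*+/+ replicates, a log2 fold change of 2.01 (adjusted p = 7.49e-05 from edgeR). *Phlda3*, an inhibitor of the kinase Akt, measured 7.64, 15.6 and 8.66 CPM against 1.46, 1.45 and 0.936 CPM, a log2 fold change of 3.01 (adjusted p = 1.59e-04 from edgeR). For both, the genotypes stood far apart. *Psrc1*, which encodes a protein of the mitotic spindle, and *Bbc3*, which encodes the apoptotic protein Puma, followed with log2 fold changes of 0.87 and 1.02. Outside the 4 smallest p-values, *Bax*, a protein that opens mitochondria in apoptosis, *Exoc4*, a subunit of the exocyst, *Tap1*, a peptide transporter of antigen presentation, and *Aen*, an apoptotic nuclease, also rose, by 0.75, 0.52, 0.46 and 0.44 on the log2 scale, and were named after their values were seen. *Eda2r*, *Phlda3*, *Psrc1*, *Bbc3*, *Bax* and *Exoc4* passed in every alternative in which they were tested, while *Tap1* passed in 13 and *Aen* in 12 of 16.

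**Figure D4:**
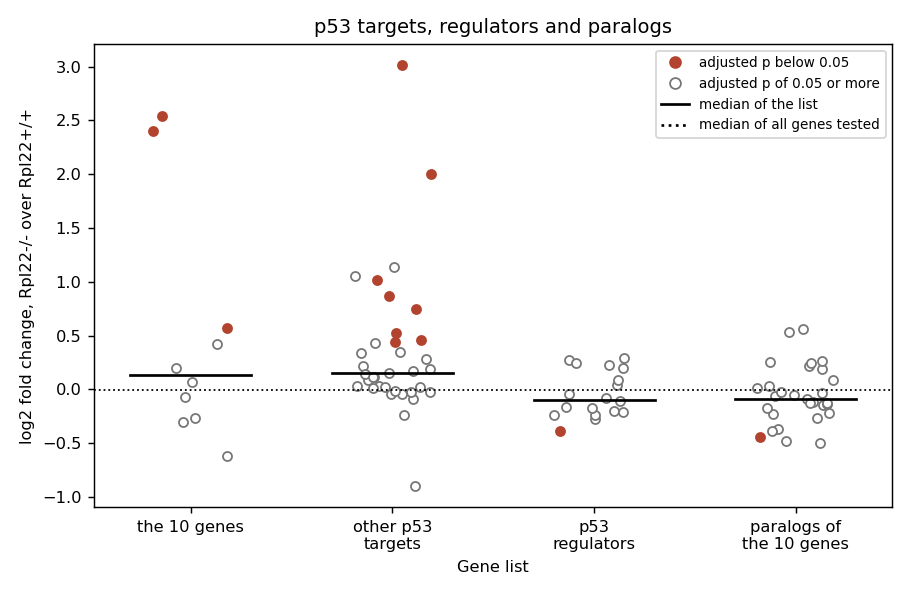
Log2 fold change of *Rpl22*-/- over *Rpl22*+/+ HSCs for each tested gene of 4 lists (points, spread sideways for legibility, red where the adjusted p from edgeR was below 0.05), with a bar at each list's median and a dotted line at the median of all genes tested. In the 10 genes and the other p53 targets the red points are all higher in *Rpl22*-/- and most genes lie near 0, while the regulators and the paralogs hold 1 red point each, below 0.

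The 5 genes outside the 10 whose profile over the 6 libraries was most like that of *Cdkn1a* were found among 10639 genes by the root mean square difference of log2 CPM centred on each gene's mean. *Eda2r* was the nearest, at 0.37. *Dynlt1b*, which encodes a light chain of the motor dynein, *0610039K10Rik*, *4933408J17RIK* and *Gm10382* followed at 0.62, 0.67, 0.68 and 0.68, with log2 fold changes from 1.21 to 1.32. Of the 10 genes, *Zmat3* was nearer to *Cdkn1a* than any of these, at 0.26, and *Ccng1* was at 0.97. The measure follows the size of the difference between genotypes as well as its shape, and it says nothing of shared control.

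The genes downstream of arrest and stress were counted from lists. Of 24 cell cycle genes, edgeR passed 0 in either direction. Unadjusted, 4 had a p below 0.05, beside 3122 of 14004 over all genes. DESeq2 passed 1 of the 24, and their median log2 fold change was 0.09. *Plk1*, *Ccnb2*, *Birc5* and *Bub1*, which act in mitosis, had the smallest p-values, with log2 fold changes of 0.53, 0.27, 0.30 and −0.24. Without *Rpl22*-/- replicate 1, 6 of the 24 passed as higher, beside 965 of all 14243 genes then tested. Of 14 G1 cyclins, their kinases and related factors, 3 rose and 0 fell. *Ccnd1* and *Cdk6*, a cyclin and a kinase that drive the G1 phase, had log2 fold changes of 0.44 and 0.37, *E2f4*, a repressor of the cell cycle genes, had 0.43, and *Rb1*, which holds E2F factors back, had −0.22 and did not pass. With single libraries left out, 3 of the 14 passed without *Rpl22*-/- replicate 1, 1 passed without *Rpl22*+/+ replicate 2, and 0 passed without any other library. These counts stand beside those over all genes with the same libraries left out, given above.

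Some of the 10 genes also answer to signals other than p53. *Btg2* and *Plk2* respond to serum and other acute stimuli like immediate early genes, of which 15 were tested, 7 rose and 0 fell, and whose median log2 fold change was 0.56. *Ppp1r15a*, *Junb*, *Ier5* and *Myc* had the smallest p-values, with log2 fold changes of 0.55, 0.76, 0.85 and 0.56. With 1 library left out, between 2 (without *Rpl22*-/- replicate 3) and 11 (without *Rpl22*-/- replicate 1) passed. Leaving out these same libraries gave the fewest and the most calls over all genes, 127 and 1720. Of 16 targets and members of the Atf4 stress pathway, which includes *Sesn2* among its known targets, 2 rose and 1 fell, with a median of 0.11. *Atf4* and *Atf5* had log2 fold changes of 0.38 and 0.72, *Vldlr*, a lipoprotein receptor, had −0.54, and *Shmt2*, at 0.27, did not pass. After removal of the length and GC trends, 0 of these 16 passed in either direction. Leaving out any library but *Rpl22*-/- replicate 1 gave 0 as higher, and the call of *Vldlr* held in 10 of 16 alternatives and was lost without *Rpl22*-/- replicate 3 or any *Rpl22*+/+ library. Of 26 genes of the pathway through which sestrins act on mTORC1 and on oxidative stress, 1 passed with edgeR, *Sesn3*, as lower. Of these 26, 5 had an unadjusted p below 0.05, beside 3122 of 14004 over all genes. The list's median was −0.0008 and changed sign with the processing, from −0.04 to 0.04. *Keap1*, *Nfe2l2* and *Mios* had log2 fold changes of 0.33, 0.27 and 0.24 and did not pass, although *Keap1*, at an adjusted p of 0.0514 from edgeR, passed as higher in 7 of 16 alternatives, DESeq2 among them (adjusted p from 0.00866 to 0.205).

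Markers of other cells moved with the genotype in part. Of the 6 megakaryocyte markers, *Gp1bb*, *Itga2b*, *Gp9* and *Pf4* rose, by 0.82, 0.51, 0.46 and 0.70 on the log2 scale, and 0 fell, although 1 of the 6 passed without *Rpl22*+/+ replicate 1 or replicate 3. Of the 8 neutrophil markers, 1, *Camp*, rose, a call that held in 8 of 15 alternatives, and the median log2 fold change was 1.53. That median was 0.77 without *Rpl22*-/- replicate 2, 2.03 without *Rpl22*+/+ replicate 1, and 0.50 over the 3 markers with at least 10 counts in every library. *Mpo*, *Elane* and *Ngp*, at 2.32, 2.24 and 1.43, did not pass. Of the HSC markers 1, *Gata2*, rose by 0.39 and 1, *Fgd5*, fell by 0.41 on the log2 scale, and *Slamf1* and *Hlf*, at 0.30 and −0.19, did not pass. The calls of *Gata2* and *Fgd5* held in 12 and 11 of 16 alternatives. Of the 3 erythroid markers tested, *Car1* fell by 1.37 on the log2 scale, in 11 of 16 alternatives too, and *Epor* and *Klf1*, at 0.24 and −0.11, did not pass. None of the 3 multipotent progenitor, 4 monocyte and macrophage, 1 B cell and 1 T cell markers tested passed in the edgeR fit reported or with DESeq2. In the alternatives *Flt3* passed as lower in 2 of 16 and *Ly6c2* as higher in 3 of 15. In the edgeR fit reported, 3 of the markers of these groups had an unadjusted p below 0.05, beside 3122 of 14004 over all genes. The log2 fold changes of *Flt3*, *Cd34* and *Cd48* were −0.36, −0.11 and 0.19, those of *Ly6c2*, *Irf8*, *Csf1r* and *Ccr2* were 2.13, 0.50, 0.08 and 0.08, and those of *Cd79b* and *Cd4* were 0.29 and −0.44. The part of these markers in the differences of the p53 targets was not tested.

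**Figure D5:**
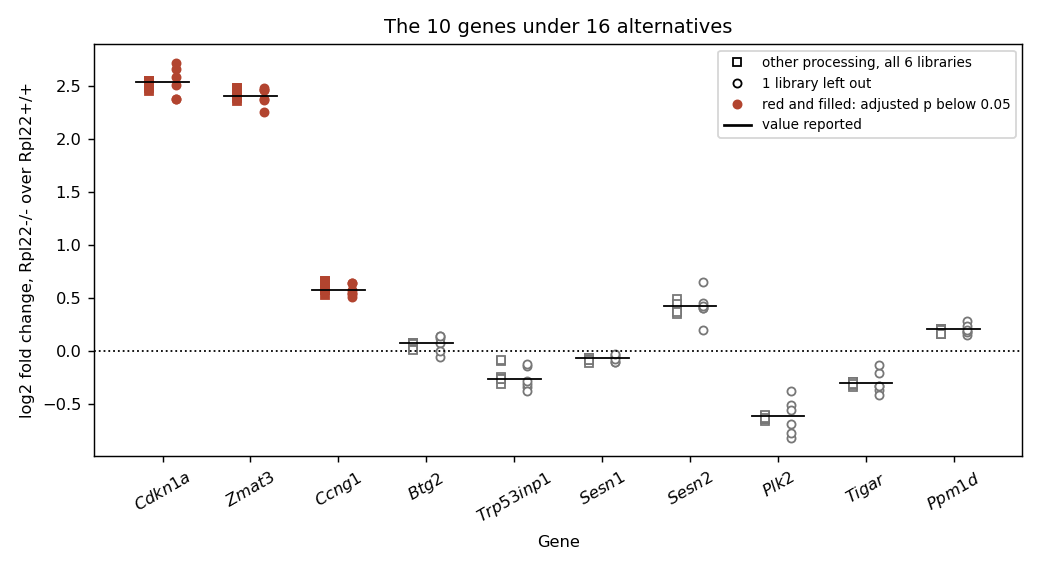
Log2 fold change of each of the 10 genes under 16 alternatives, 10 that keep all 6 libraries (squares) and 6 that leave out 1 library (circles), red and filled where the adjusted p was below 0.05, with a bar at the value reported. *Cdkn1a*, *Zmat3* and *Ccng1* stay filled throughout, the other 7 genes are unfilled throughout, and circles of *Btg2* cross 0.

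*Cdkn1a*, *Zmat3* and *Ccng1* passed in all 16 alternatives, with log2 fold changes from 2.38 to 2.72, from 2.26 to 2.49 and from 0.51 to 0.66. The highest adjusted p-values, each without *Rpl22*-/- replicate 3, were 0.00271, 7.56e-06 and 0.0397. The other 7 passed in none. Some sequence is shared with other genes. Genes that overlap in the genome left aside, stretches of at most 165 bases in the *Cdkn1a* transcripts matched 34 other genes at 95% identity or more, and stretches of at most 142 bases in *Zmat3* matched 3, while the other 8 genes had no such match of at least 100 bases. Exons of *Cdkn1a* and *Tigar* overlap the opposite-strand genes *AC167363.2* and *Platr31* over 273 and 122 bases, and since the strand setting of the counting is not given in the sources used here, reads there cannot be told apart.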

How the data were processed

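RNA of sorted HSCs was sequenced as polyA+ TruSeq libraries, 3 per genotype. The authors aligned reads to mm10 with TopHat2 2.1.1 and deposited the counts of reads on each gene from HTSeq, as raw whole numbers. Annotation and strand setting are not given in the sources used here. The 5 HTSeq totals, 58.6% to 60.9% of each library's reads, were left out, and 0 per-sample columns were unused. Most of these reads, 50.3% to 52.7% of each library, fell on no annotated feature, and 7.49% to 8.23% did not align uniquely. Why so many fell on no feature was not tested. Reads on genes numbered 9321123 to 13385850 per library, and each mean rests on 3 values.

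From these counts, edgeR 4.0.16 (R 4.3.3) fitted genotype alone, with TMM factors, filterByExpr (minimum count 10) and the quasi-likelihood test, adjusted by Benjamini-Hochberg over 14004 genes. Standard errors are the fold change (log2) divided by the root of the F statistic, and 95% intervals use the test's degrees of freedom without adjustment. Positions and exon lengths came from GENCODE for GRCm38 (29093 symbols matched directly, 1836 by an older symbol, 3644 not at all) and promoters from RefSeq. Transcripts were compared with BLAST 2.17.0.

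The 10 genes and all lists (paralogs, regulators, other p53 targets, cell cycle, G1, immediate early, Atf4 and sestrin genes, and markers of HSCs, progenitors and mature lineages) were chosen with earlier results of these data known. Named are the 10 genes, *Rpl22*, *Trp53*, *Mdm2*, *Mdm4*, *Cdkn2a*, the paralog with the smallest p in each family, the 4 smallest p-values of each other list, and the 5 genes most like *Cdkn1a* with an average log2 CPM of at least 3. Lists share genes, so *Mdm2*, *Ppm1d*, *Sesn2*, *Sesn3*, *Plk1*, *Ccne1* and *Ccne2* were counted in more than 1. The 16 alternatives were DESeq2 1.42.0, limma-voom (limma 3.58.1), upper-quartile or relative log expression factors, no factors beyond library size, no filter (at least 1 count in any library), at least 10 counts in every library, a replicate block, removal of length and GC trends (lowess, span 0.3) with and without the block, and each of 6 libraries left out. The tests were tried on simulated data first. Tables and plots were made with matplotlib 3.10.9, scipy 1.17.1, numpy 2.4.6 and pandas 2.3.3 under Python 3.11.15.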

Additional observations from a re-analysis of the deposited data

How the results depend on the processing

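The calls of *Cdkn1a*, *Zmat3* and *Ccng1*, the count of 3 of 10 and the sign of the 10 genes' median held in all 16 alternatives, and that median ran from 0.05 to 0.21 as single libraries were left out. *Btg2* turned to −0.056 without *Rpl22*-/- replicate 3 and to −0.0012 without *Rpl22*+/+ replicate 3, and ran up to 0.14 without *Rpl22*+/+ replicate 2. Over all genes, 780 passed, against 1422 with no filter on low counts, 499 after removal of length and GC trends, and between 127 (without *Rpl22*-/- replicate 3) and 1720 (without *Rpl22*-/- replicate 1) with 1 library left out. The cause was not tested, although the filter also changes which genes are tested (20635 without it). Of the calls, 58.8% were higher in *Rpl22*-/- with TMM and 43.4% with library size alone, where the median of all genes was −0.051. With the replicate number as a block 904 genes passed, 3 of the 10 among them. Same-numbered libraries deviated with correlations of −0.103, 0.055 and 0.045, and differently numbered ones with −0.171 to 0.132. Whether the numbers pair the libraries is not given by the labels, and these few values cannot settle it. Fewer than 70 reads per library limit what *Plk2* and *Tigar* can show.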
